A study of Homo sapiens with 4 samples.

Results

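The transcripts described here encode 35 proteins of central carbon metabolism: glucose and lactate transporters, and enzymes of glycolysis, of the pentose phosphate pathway and of the citrate cycle. They were chosen by gene symbol, by pathway membership and with no threshold on a value, though earlier results of these data were known, and all 35 were found among the 26830 genes of the table. RNA immunoprecipitation sequencing (RIP-seq), in which RNA bound to a protein is recovered with an antibody and sequenced, was used to ask which transcripts QKI7 binds. There were 2 Flag-RIP libraries, made from RNA recovered with a Flag antibody, and 2 input libraries, made from RNA of the lysate with no antibody. Both groups came from U2OS, a human bone osteosarcoma line, infected with a lentivirus for Flag-tagged QKI7 and kept as GFP-positive cells without further treatment. The input cells therefore also expressed the tagged protein, at a level set by the virus, and cells without it or a mock precipitation were not analysed here. The labels number the replicates but name no separate cultures, and the p-values below may therefore reflect technical spread alone.

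QKI is a STAR-domain RNA-binding protein that recognises ACUAA-type sites and takes part in splicing, stability and translation of its targets. Its isoforms, QKI7 among them, share the RNA-binding domain and differ in their C-terminal tails. Glycolysis splits glucose into pyruvate in the cytosol. The pentose phosphate pathway branches from it to make NADPH and ribose, and the citrate cycle oxidises acetyl groups in mitochondria. Several steps can be carried out by more than 1 isozyme, encoded by separate genes, and the mRNAs of many of these enzymes are among the abundant transcripts of cultured cells.

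Values are TPM, a transcript's length-normalised share of its library, which keeps no read depth. Spike-in RNAs took 18.9% and 25.6% of the TPM in the Flag-RIP libraries, against 2.78% and 3.89% in the input libraries. Most genes were nevertheless higher in Flag-RIP as deposited. Among the 10415 genes that averaged 1 TPM or more over the 4 libraries, called the tested genes, the median ratio of Flag-RIP to input was 3.32, and a ratio is read here against that median. The osteoblast-lineage and mesenchymal markers were uneven, with COL1A1, SPARC and VIM at 35.2 TPM or more in every library and RUNX2 between 0.61 and 6.52 TPM. IBSP was listed at 0 in all 4 libraries, and ALPL, SPP1, COL1A2 and SP7 stayed under 1 TPM, as did BGLAP but for 2.62 TPM in Flag-RIP replicate 1. Of 6 markers of other cell types, KRT8 had 20.0 to 39.2 TPM, ALB was listed at 0 and the others stayed under 1 TPM. QKI, which may include reads of the transgene, had 60.7 and 42.0 TPM in the Flag-RIP libraries, against 3.83 and 5.85 TPM in input.

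Most of the 35 transcripts were recovered less than the median gene. Their ratios of Flag-RIP to input had a median of 1.92, and 30 of the 35 lay below 3.32, where 50% of all tested genes lie by definition. For 18 of the 35 the ratio was under 2, which held for 14.5% of all tested genes. The filter averaged all 4 libraries, and 6117 and 7803 genes reached 1 TPM in input, against 11970 and 12098 in Flag-RIP. Genes that passed through their Flag-RIP values can raise the median of 3.32 and lower the 14.5%. Of the members, 3 had a mean input under 1 TPM. The size of this effect was not tested. The exceptions above the median were the glucose transporters SLC2A1 and SLC2A3, the lactate transporter SLC16A1, hexokinase HK2 and the enolase ENO2, with ratios of 4.17 to 5.08. As deposited, 34 of the 35 were higher in both Flag-RIP libraries than in both inputs, as were 96.7% of tested genes, and GAPDH alone overlapped. On that scale 25 were called higher by limma and 0 lower at an adjusted p under 0.05, against 92.3% and 0.317% of all tested genes.

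**Figure D1:**
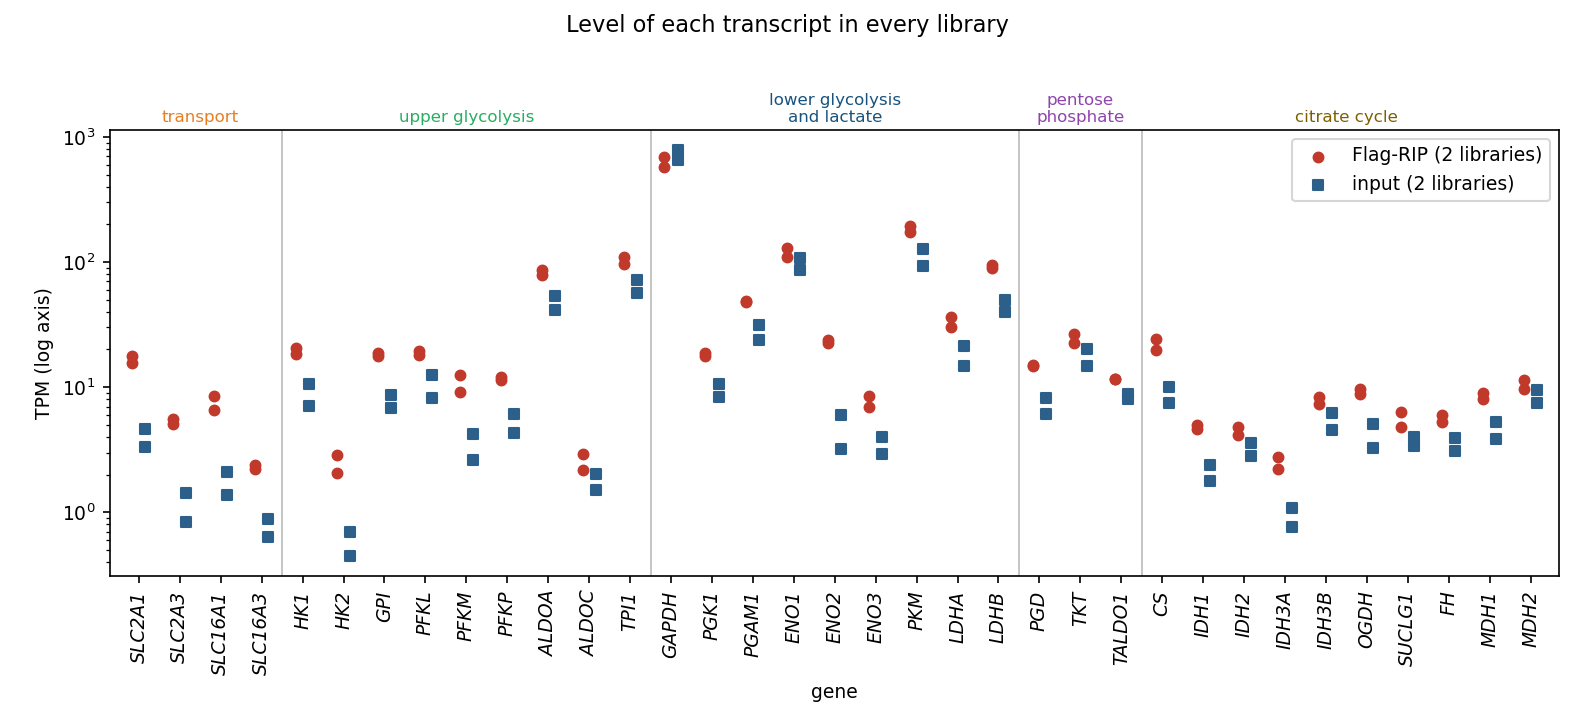
TPM of each of the 35 transcripts (log axis) in the 2 Flag-RIP libraries (red circles) and the 2 input libraries (blue squares), ordered by role. GAPDH is the most abundant and the one transcript whose groups overlap, and the gap between groups is wide for SLC2A1, SLC2A3, SLC16A1, HK2 and ENO2.

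Changes relative to the median gene were tested with limma on log2(TPM + 1) in a pair of ways. In the common-median fit each library was shifted to 1 median after the logarithm. Because 1 was added before the shift, an abundant gene sits at 0 on that scale when its ratio is 2.49 rather than 3.32. The fit thus reads low genes down and abundant genes up, and its calls are open to that bias by level. In simulated data where every gene had the same rise and a few a further change, most of its calls were false. In the ratio-scaled fit, added after the data were seen, each library was divided by its median ratio before 1 was added. The common-median fit called 18 of the 35 lower and 2 higher, against 24.4% and 16.4% of all tested genes. The ratio-scaled fit called 25 lower and 2 higher, against 23.7% and 21.5%. Of the 35, 17 were lower in both fits (17.8% of all tested genes) and 1, ENO2, was higher in both (12.7% of all tested genes). A further 8 were lower in the ratio-scaled fit only, and IDH3A was lower in the common-median fit only. The median change was -0.45 in the common-median fit and -0.72 in the ratio-scaled fit, against -0.11 and 0.0068 over all tested genes. Without input replicate 1 the members' median was -0.4 in the common-median fit. Fewer members were then called lower than with all libraries, and fewer of all tested genes as well. The same held for the calls of the ratio-scaled fit without Flag-RIP replicate 1. Each such fit leaves 1 library in an arm, which is then assumed to vary like the other group, so kept and lost calls describe these libraries and do not measure stability. The changes below 0 numbered 29 to 31 of the 35 with a library left out of either fit. In the common-median fit they numbered 19 with a pseudocount of 5 and 12 without a filter, so the sign of many members depended on those settings.

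**Figure D2:**
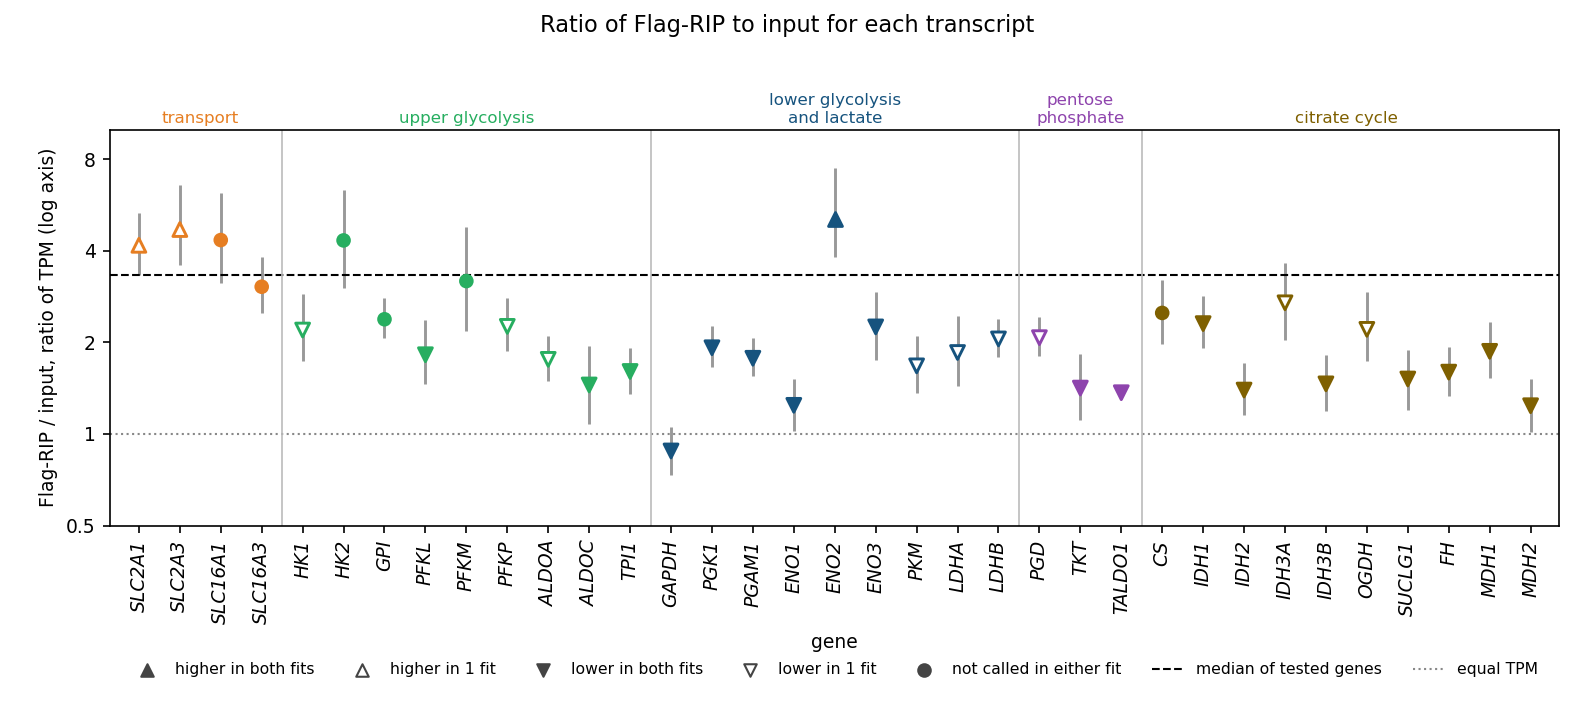
Ratio of mean TPM in Flag-RIP to mean TPM in input (log axis) for each transcript, with a line from the lowest to the highest of the 4 Flag-RIP over input quotients. The dashed line is the median of all tested genes (3.32) and the dotted line equal TPM. Filled triangles mark 18 transcripts called in the same direction by both limma fits, open triangles those called by 1 fit and circles those called by neither.

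The transporters carry glucose in and lactate out, and they formed the one group whose median ratio, 4.25, lay above that of all genes. SLC2A1, the widely expressed glucose transporter GLUT1, had 17.7 and 15.5 TPM in the Flag-RIP libraries, against 3.32 and 4.66 TPM in input. Its ratio was 4.17. SLC2A1 lies on chromosome 1 from 42925353 to 42958868 in GRCh38. Its change was 0.51 in the common-median limma fit (SE 0.12, adjusted p = 0.012) and 0.29 in the ratio-scaled limma fit (SE 0.11, adjusted p = 0.080). The first call was lost without either input library. SLC2A3, the high-affinity transporter GLUT3, had 5.54 and 5.12 TPM in Flag-RIP, against 0.84 and 1.43 TPM in input. It was called higher by the ratio-scaled limma fit (0.37, SE 0.082, adjusted p = 0.019) and not by the common-median fit (0.26, adjusted p = 0.058). The ratio-scaled call held in 1 of the 4 fits with a library left out, the one without Flag-RIP replicate 2.

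SLC16A1, which encodes the proton-coupled monocarboxylate transporter MCT1, had 8.50 and 6.59 TPM in Flag-RIP, against 1.37 and 2.11 TPM in input. Its ratio of 4.34 stood close to that of SLC2A1, but neither fit called it (limma adjusted p = 0.052 and 0.065). SLC16A3, the lactate exporter MCT4, had a ratio of 3.05, with 2.22 and 2.41 TPM in Flag-RIP and 0.63 and 0.89 TPM in input, and was not called either. SLC16A3, HK2 and IDH3A had a mean input level under 1 TPM and passed the filter through their Flag-RIP values.

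Upper glycolysis runs from the phosphorylation of glucose to the triose phosphates, and its 9 transcripts had a median ratio of 2.19. Both fits called PFKL, ALDOC and TPI1 lower, against 17.8% of all tested genes, and 0 higher, against 12.7%. HK1, the hexokinase of most tissues, had 18.5 and 20.5 TPM in Flag-RIP, against 7.11 and 10.7 TPM in input, a ratio of 2.19. HK2, a hexokinase often raised in tumour cells, was far less abundant, with 2.85 and 2.08 TPM in Flag-RIP, against 0.45 and 0.69 TPM in input. Its ratio was 4.32, and its change was -0.18 in the common-median fit and 0.21 in the ratio-scaled fit, with neither called. At such low levels the sign of the fitted change followed the step at which 1 was added. GPI, which interconverts glucose and fructose phosphates, had a ratio of 2.38 and was not called.

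The phosphofructokinases, which commit sugar phosphate to glycolysis, differed among themselves. PFKL, the liver-type subunit, had 18.2 and 19.4 TPM in Flag-RIP, against 8.18 and 12.4 TPM in input. PFKM, the muscle-type subunit, had 12.5 and 9.15 TPM in Flag-RIP, against 2.62 and 4.19 TPM in input. PFKP, the platelet-type subunit, had 12.0 and 11.3 TPM in Flag-RIP, against 4.30 and 6.06 TPM in input. The ratios were thus 1.82 for PFKL, 3.18 for PFKM and 2.26 for PFKP. PFKL was lower in both limma fits (-0.49, adjusted p = 0.028, and -0.80, adjusted p = 0.010). Its common-median call was kept without Flag-RIP replicate 2 and lost without any other library. PFKP was lower in the ratio-scaled fit alone (-0.49, limma adjusted p = 0.018), as was HK1 (-0.55, limma adjusted p = 0.024), and PFKM was not called.

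The aldolases cleave fructose bisphosphate, and triose phosphate isomerase interconverts its products. ALDOA, the main aldolase of most cells, had 79.4 and 87.1 TPM in Flag-RIP, against 41.6 and 53.2 TPM in input, a ratio of 1.76. ALDOC, best known from brain, had 2.16 and 2.94 TPM in Flag-RIP, against 1.51 and 2.01 TPM in input, a ratio of 1.45. Both aldolase transcripts thus had low ratios at levels that differed widely. TPI1 had 96.9 and 109 TPM in Flag-RIP, against 56.8 and 71.5 TPM in input, a ratio of 1.60. ALDOC was lower in both limma fits (-0.96, adjusted p = 0.0030, and -0.82, adjusted p = 0.012), as was TPI1 (-0.64, adjusted p = 0.031, and -1.05, adjusted p = 0.015). The common-median call of TPI1 was kept only without Flag-RIP replicate 2. ALDOA was lower in the ratio-scaled limma fit alone (-0.91, adjusted p = 0.018).

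Lower glycolysis, with lactate dehydrogenase, held the most abundant transcripts and both extremes of the set. GAPDH, the dehydrogenase that makes bisphosphoglycerate, had 578 and 688 TPM in Flag-RIP, against 653 and 787 TPM in input. Its groups overlapped, and its ratio of 0.88 was lower than that of all but 0.98% of tested genes. Relative to the median gene it was called lower in both limma fits, with changes of -1.50 (SE 0.24, adjusted p = 0.0033) and -1.93 (SE 0.30, adjusted p = 0.011). Without Flag-RIP replicate 1 the ratio-scaled call was lost (limma adjusted p = 0.080). GAPDH lies on chromosome 12 from 6534517 to 6538371. It made up 38.3% and 40.9% of the summed TPM of the 35 transcripts in the Flag-RIP libraries, against 58.0% and 55.7% in input. The other 34 together took 0.0932% and 0.0993% of the Flag-RIP libraries, against 0.0474% and 0.0626% of the input libraries.

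Enolase, which makes phosphoenolpyruvate, gave the widest contrast between isozymes. ENO1, the ubiquitous form, had 111 and 130 TPM in Flag-RIP, against 85.9 and 108 TPM in input, a ratio of 1.24. ENO2, known as neuron-specific enolase, had 22.7 and 23.8 TPM in Flag-RIP, against 3.18 and 5.97 TPM in input, a ratio of 5.08. ENO3, the muscle form, had 8.53 and 6.98 TPM in Flag-RIP, against 2.91 and 3.99 TPM in input, a ratio of 2.25. ENO2 was the highest of the 35 by ratio, above 80.8% of all tested genes, so many transcripts outside the set had larger ratios. Both limma fits called ENO2 higher, by 0.85 (SE 0.15, adjusted p = 0.0052) and 0.60 (SE 0.13, adjusted p = 0.020). The common-median call was lost without input replicate 1 (limma adjusted p = 0.071), and the ratio-scaled call was kept in 1 of 4 fits with a library left out, the one without input replicate 2. ENO1 was called lower in both limma fits (-1.0, adjusted p = 0.0075, and -1.42, adjusted p = 0.011), as was ENO3 (-0.34, adjusted p = 0.046, and -0.48, adjusted p = 0.023). ENO2 lies on chromosome 12 from 6914580 to 6923697, on the same chromosome arm as GAPDH and TPI1, and ENO1 on chromosome 1 from 8861000 to 8878686.

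The remaining steps to pyruvate and lactate were uniform by comparison, with ratios of 1.67 to 2.05. PKM, pyruvate kinase, had 175 and 194 TPM in Flag-RIP, against 92.2 and 128 TPM in input. PGK1, a kinase that makes ATP, had 17.6 and 18.8 TPM in Flag-RIP, against 8.31 and 10.7 TPM in input. PGAM1, a phosphoglycerate mutase, had 48.3 and 49.1 TPM in Flag-RIP, against 23.7 and 31.2 TPM in input. PGK1 and PGAM1 were lower in both limma fits (adjusted p of 0.036 and 0.038 in the common-median fit), and the PGAM1 call of that fit was lost without any 1 of the 4 libraries. PKM and the lactate dehydrogenases LDHA and LDHB were lower in the ratio-scaled limma fit alone (adjusted p = 0.018, 0.017 and 0.031). LDHA, which favours lactate formation, had 30.4 and 36.3 TPM in Flag-RIP, against 14.8 and 21.2 TPM in input. LDHB, the heart-type subunit, had 94.2 and 89.97 TPM in Flag-RIP, against 39.6 and 50.1 TPM in input. Processed pseudogenes of several of these genes exist, and 3 rows named as pseudogenes of TPI1 and PGAM1 had 0.51 TPM or less. How reads were divided between the other genes and their pseudogenes was not tested.

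The 3 pentose phosphate transcripts had a median ratio of 1.42, with TKT and TALDO1 low and PGD above the median of the 35. TKT, transketolase, had 22.4 and 26.8 TPM in Flag-RIP, against 14.7 and 20.1 TPM in input, a ratio of 1.42. TALDO1, transaldolase, had 11.6 and 11.6 TPM in Flag-RIP, against 8.08 and 8.87 TPM in input, a ratio of 1.37. These transcripts of the non-oxidative branch were lower in both limma fits, TKT with changes of -0.83 and -1.18 (adjusted p = 0.0070 and 0.0099) and TALDO1 with -0.91 and -1.18 (adjusted p = 0.0030 and 0.010). Both lost the common-median call without input replicate 1 and the ratio-scaled call without Flag-RIP replicate 1. PGD, which releases carbon dioxide and makes NADPH, had 15.0 and 14.7 TPM in Flag-RIP, against 6.16 and 8.14 TPM in input. Its ratio was 2.07, and it was lower in the ratio-scaled fit alone (-0.62, limma adjusted p = 0.016).

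The citrate cycle set had 10 transcripts with a median ratio of 1.73, and none reached the median gene. Both fits called 7 of them lower, against 17.8% of all tested genes, and 0 higher, against 12.7%. MDH2, the mitochondrial malate dehydrogenase, had 9.59 and 11.5 TPM in Flag-RIP, against 7.54 and 9.46 TPM in input. The groups barely separated, and the ratio was 1.24, beside 1.87 for MDH1, the cytosolic enzyme. MDH2 had changes of -1.04 (SE 0.14, adjusted p = 0.0023) and -1.30 (SE 0.17, adjusted p = 0.0096) in the limma fits, and MDH1 -0.53 and -0.72. MDH2 lies on chromosome 7 from 76048106 to 76067508.

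The isocitrate dehydrogenases spanned cytosol and mitochondria. IDH2, the mitochondrial NADP-dependent enzyme, had 4.79 and 4.16 TPM in Flag-RIP, against 2.81 and 3.61 TPM in input. IDH1, its cytosolic relative, had 4.60 and 5.01 TPM in Flag-RIP, against 1.77 and 2.40 TPM in input. The ratio was 1.39 for IDH2 and 2.30 for IDH1, so IDH2 was the more abundant in input and about level with IDH1 in Flag-RIP. IDH2 was lower in both limma fits (-0.93, SE 0.10, adjusted p = 0.0011, and -1.0, SE 0.11, adjusted p = 0.0089). Its call was kept in both fits when each of the 4 libraries was left out in turn, which held for no other member. IDH1 was also lower in both limma fits (-0.40 in each, adjusted p = 0.022 and 0.032), but the ratio-scaled call was lost without any 1 library.

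IDH3A and IDH3B encode subunits of the NAD-dependent enzyme of the cycle. IDH3B had 7.37 and 8.35 TPM in Flag-RIP, against 4.58 and 6.18 TPM in input, a ratio of 1.46. IDH3A had 2.77 and 2.22 TPM in Flag-RIP, against 0.76 and 1.09 TPM in input, a ratio of 2.70. IDH3B was lower in both limma fits (-0.83 and -1.03, adjusted p = 0.0028 and 0.0096). IDH3A was lower in the common-median limma fit (-0.46, adjusted p = 0.026) but not in the ratio-scaled one (-0.18, adjusted p = 0.16). Its mean input was 0.925 TPM, a low level that the common-median fit reads down, and the part of that bias in its call was not tested.

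Of the other enzymes, CS, citrate synthase, which opens the cycle, had 24.1 and 19.9 TPM in Flag-RIP, against 7.49 and 10.1 TPM in input. Its ratio of 2.50 was called in neither fit. OGDH, a subunit of the oxoglutarate dehydrogenase complex, had a ratio of 2.21 and was lower in the ratio-scaled fit alone (-0.49, limma adjusted p = 0.019). SUCLG1, a subunit of succinyl-CoA ligase, had 4.77 and 6.34 TPM in Flag-RIP, against 3.36 and 3.97 TPM in input. FH, fumarase, had 5.25 and 5.99 TPM in Flag-RIP, against 3.11 and 3.93 TPM in input. The ratios were 1.52 for SUCLG1 and 1.60 for FH, and both were lower in the 2 limma fits (adjusted p from 0.0033 to 0.015). Each lost the common-median call without input replicate 1 and the ratio-scaled call without Flag-RIP replicate 1.

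Ratios of 1 transcript to another within a library do not depend on how libraries are scaled, and 12 pairs of isozymes or partners were compared that way. In 6 pairs the ratio was higher in both Flag-RIP libraries than in both inputs, in 5 it was lower and in 1 the groups overlapped. How often pairs of other tested genes separate in these 4 libraries was not tested, so these counts are no result about isozymes. Whether a pair counts as higher or lower depends on which gene was set as the numerator. With 2 libraries a group, the exact permutation test cannot give a two-sided p below 0.333, which all 11 separated pairs had, so none can pass a threshold. ENO2 over ENO1 moved most, at 0.205 and 0.182 in Flag-RIP, against 0.0370 and 0.0552 in input, which is 4.28-fold higher. As a share of the summed enolase TPM, ENO2 was 15.99% and 14.8% in Flag-RIP, against 3.46% and 5.05% in input, while ENO1 remained the main form in every library.

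HK2 over HK1 was 0.154 and 0.101 in Flag-RIP, against 0.0633 and 0.0645 in input, or 1.95-fold higher. PFKM over PFKL was 0.687 and 0.473 in Flag-RIP, against 0.320 and 0.337 in input, or 1.74-fold higher. In both pairs the Flag-RIP libraries differed from each other more than the inputs did. ENO3 over ENO1 was 1.82-fold higher and PFKP over PFKL 1.23-fold higher, while ALDOC over ALDOA was lower, at 0.0272 and 0.0337 in Flag-RIP and 0.0363 and 0.0378 in input. In the citrate cycle the ratios were lower in Flag-RIP, a shift toward the cytosolic form or the partner subunit. The numerator there was the more abundant transcript in input, whereas in the hexokinase, phosphofructokinase and enolase pairs it was the less abundant. IDH3B over IDH3A was 2.66 and 3.76 in Flag-RIP, against 6.03 and 5.67 in input. IDH2 over IDH1 was 1.04 and 0.83 in Flag-RIP, against 1.59 and 1.504 in input. MDH2 over MDH1 was 1.06 and 1.43 in Flag-RIP, against 1.95 and 1.80 in input. The mitochondrial IDH2 and MDH2 were thus the less recovered of each pair. LDHB over LDHA, at 3.09 and 2.48 in Flag-RIP and 2.67 and 2.36 in input, was the pair that overlapped (exact permutation p = 0.667). Among transporters, SLC16A3 over SLC16A1 was 0.261 and 0.366 in Flag-RIP, against 0.460 and 0.422 in input. SLC2A3 over SLC2A1 was 0.313 and 0.329 in Flag-RIP, against 0.253 and 0.307 in input, a narrow gap. Reads that fit 2 paralogs were divided by the authors' software, so these ratios also rest on that division.

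**Figure D3:**
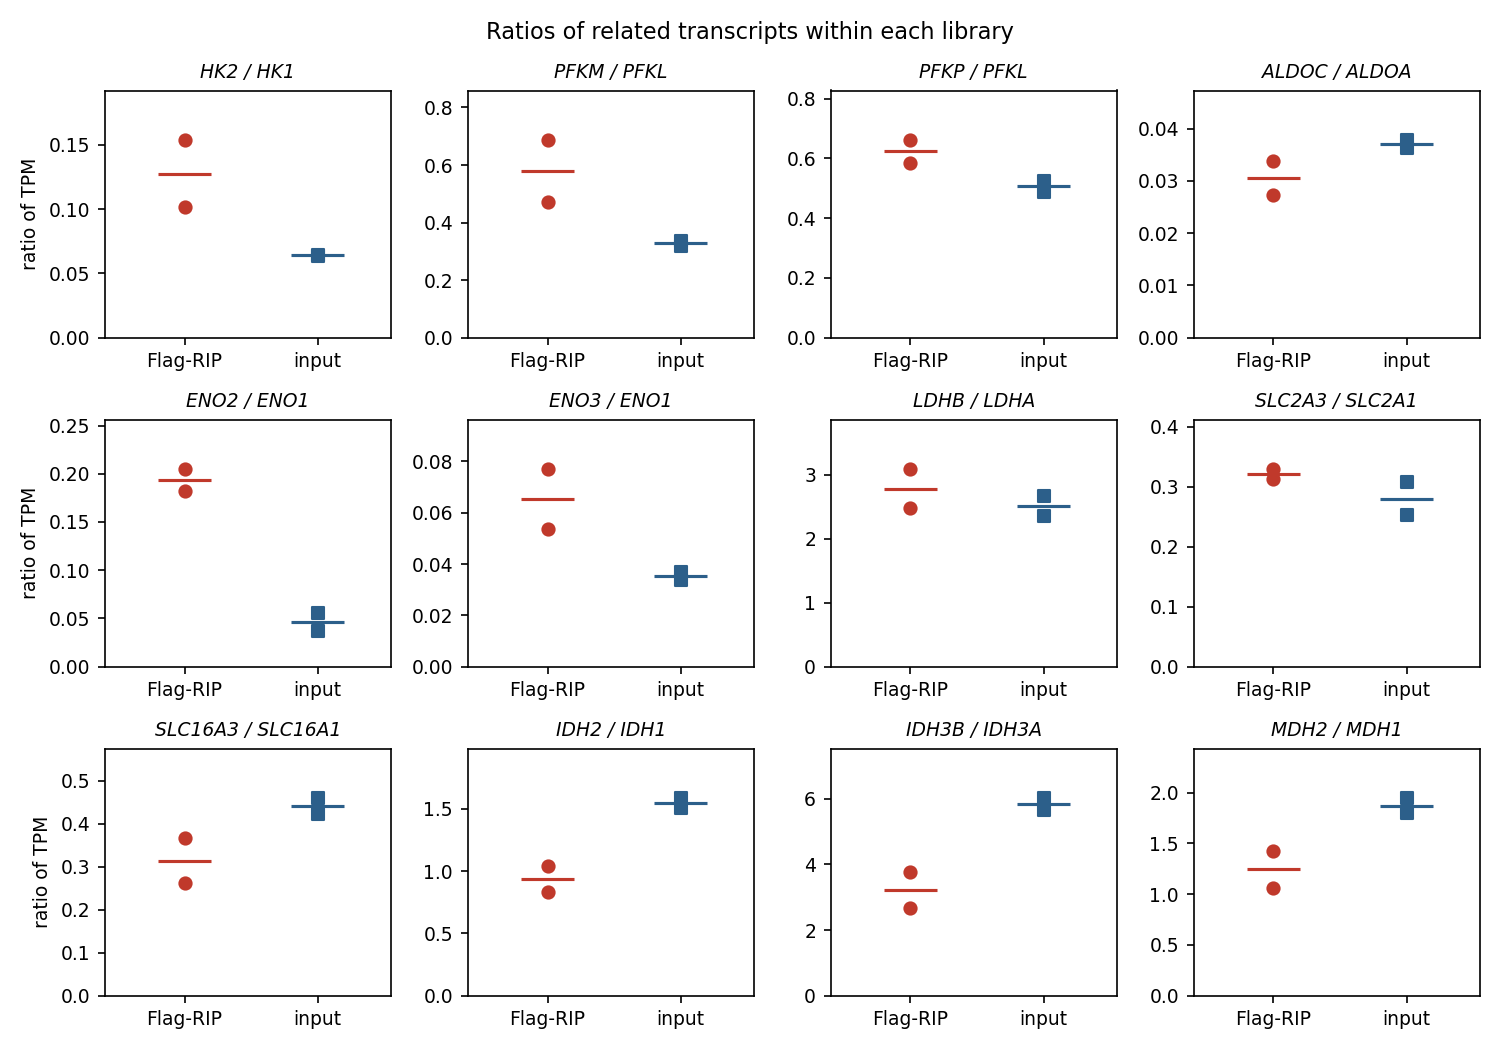
TPM ratio of 12 pairs of related transcripts within each library, with Flag-RIP (red circles) on the left and input (blue squares) on the right of each panel, and the group mean as a line. Axes start at 0. ENO2 over ENO1 shows the widest gap (mean 0.194 in Flag-RIP and 0.0461 in input), and LDHB over LDHA is the one pair whose groups overlap.

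Abundant transcripts of the set tended to have low ratios. Across the 35 the ratio and the mean TPM correlated at a Pearson r of -0.48 on log scales and a Spearman rho of -0.36, and without GAPDH at -0.37 and -0.30. Over the 10369 tested genes with a positive finite ratio the values were -0.26 and -0.27. These are descriptions across genes of the same 4 libraries, whose TPM enters both measures. At low input levels the ratios varied widely, from 1.45 for ALDOC and 1.39 for IDH2 to 3.18 for PFKM and 4.34 for SLC16A1, whose mean input was 1.76, 3.21, 3.41 and 1.74 TPM in that order. The longer genomic spans went with higher ratios, at a Spearman rho of 0.42 over the 35 and 0.24 over the 9729 tested genes with a span in the RefSeq table, and the part of either relation in the low ratios was not tested.

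**Figure D4:**
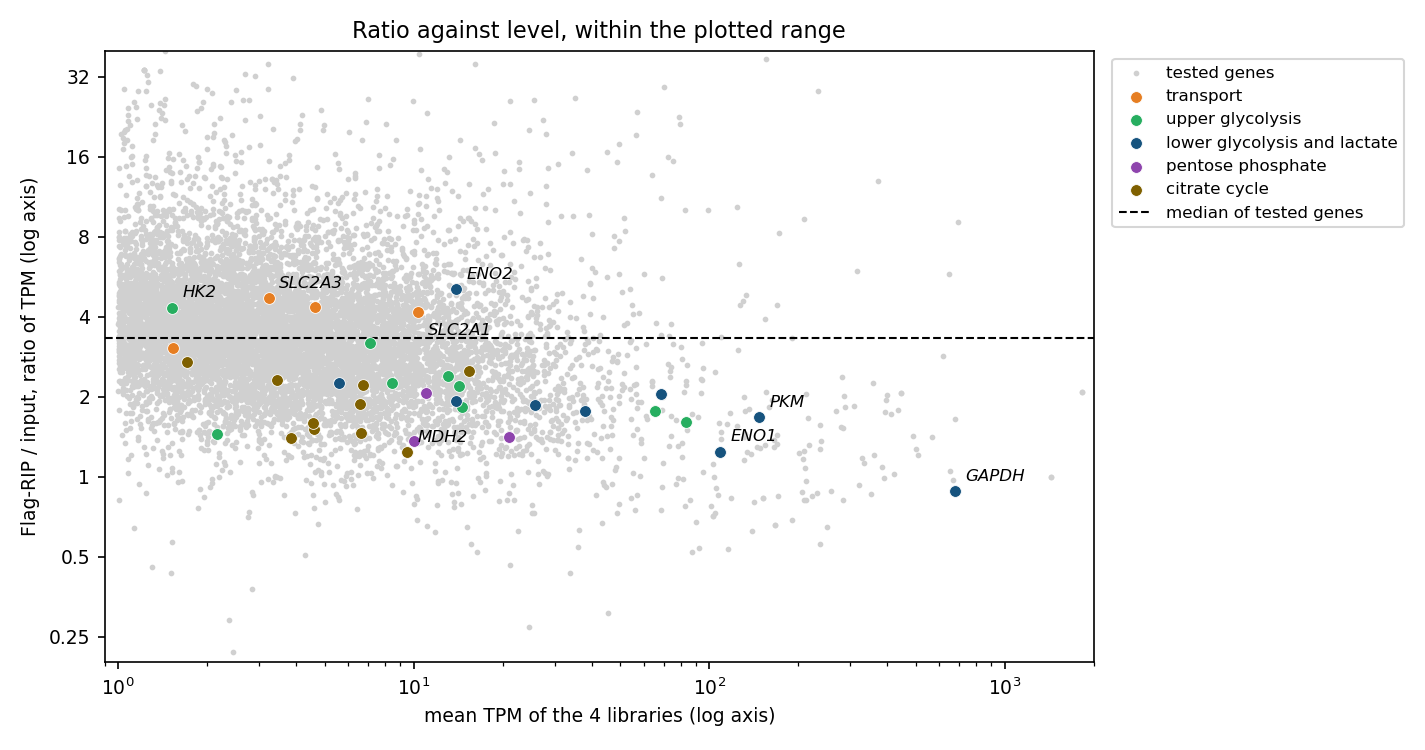
Ratio of Flag-RIP to input (log axis) against the mean TPM of the 4 libraries (log axis) for tested genes within the plotted range (grey) and the 35 transcripts by role (colours). Of the coloured points 30 lie below the dashed median of 3.32, and ENO2, SLC2A1, SLC2A3, SLC16A1 and HK2 lie above it.

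Of 82 other genes of the same pathways, 56 were tested, with a median ratio of 2.52, against 3.32 over all tested genes. The median was 3.02 for 16 genes of glycolysis and glucose handling and 2.66 for 8 of the pentose phosphate pathway. It was 2.66 for 11 genes of pyruvate entry and 2.31 for 21 of the citrate cycle and linked steps. The common-median fit called 23 of the 56 lower and 5 higher, against 24.4% and 16.4% of all tested genes. The ratio-scaled fit called 25 lower and 8 higher, against 23.7% and 21.5%. Their difference from the 35 was not tested. PGLS, the lactonase of the pentose phosphate pathway, had 6.83 and 8.05 TPM in Flag-RIP, against 5.16 and 7.47 TPM in input, a ratio of 1.18 (-1.10 in the common-median limma fit, adjusted p = 0.0015). SDHB, the iron-sulphur subunit of succinate dehydrogenase, had a ratio of 1.44 (-0.87, limma adjusted p = 0.0029).

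The 3 largest increases of that list among genes called in the common-median fit also had higher ratios than ENO2. PGM2, a phosphoglucomutase family member, had 11.2 and 7.13 TPM in Flag-RIP, against 0.72 and 1.07 TPM in input, a ratio of 10.2. MPC1, a subunit of the mitochondrial pyruvate carrier, had 7.79 and 3.84 TPM in Flag-RIP, against 0.38 and 0.50 TPM in input, a ratio of 13.2. PDPR, a regulatory subunit of pyruvate dehydrogenase phosphatase, had 13.9 and 10.6 TPM in Flag-RIP, against 1.21 and 2.14 TPM in input, a ratio of 7.30. All 3 were called higher in both limma fits (adjusted p from 0.0018 to 0.023). The inputs of MPC1 and PGM2 averaged under 1 TPM, so both passed the filter through their Flag-RIP values. Their ratios and calls thus rest on low input values.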

How the data were processed

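Both groups were sequenced from ribosomal-depleted RNA of cells cross-linked with ultraviolet light and sonicated, with a stranded mRNA kit, per the labels' protocols. The authors deposited TPM values, 1 column per library, with 92 spike-in (ERCC) rows among the genes, and each column sums to 1000000 but for rounding. STAR and RSEM version 1.2.31 with the GRCh38 build were used, per the submitters' processing notes. The gene annotation, any filter and the strand setting are not stated in those notes. TPM holds no read depth, so no counting interval is given.

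No spike-in row was tested. Genes averaging 1 TPM or more were tested in R 4.3.3 with limma 3.58.1 (linear model, eBayes with a trend, 2 residual degrees of freedom) on log2(TPM + 1), two-sided, Benjamini-Hochberg adjusted over 10415 genes. Such log2 changes understate low genes. The procedure was tested on simulated data. Every gene was given the same rise in Flag-RIP, and a few a further change. Most calls of the common-median fit were then false and few of the ratio-scaled fit. The latter was added for that reason after the data were seen. The simulated spread was the same for every gene and library, whereas in these data the Flag-RIP replicates differed more than the inputs. Coordinates are from RefSeq, GRCh38.p14. All members are named, with the 3 largest called increases and decreases of the related list, of which 1 is not reported here. Members and lists were chosen with earlier results of these data known. Alternatives covered pseudocount, filter, scaling, variance model, replicate block and single libraries left out. Same-numbered replicate deviations correlated at -0.067 across genes, and the numbers were not taken as pairs. With 2 libraries a group that correlation cannot show that they are unpaired, and a fit blocked on the number is given below.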

Additional observations from a re-analysis of the deposited data

How the results depend on the processing

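The counts rest on 2 libraries a group, and TPM holds no depth, so precision at low levels is unknown. The members' median in the common-median fit (-0.45) was -0.78 at a pseudocount of 0.1 and -0.019 at 5. Without a filter, where the library medians include many low genes, it was 0.11. With a minimum mean of 5 TPM it was -0.51 over the 25 members that passed. In place of the common median, scaling to the spike-ins gave -1.56. Leaving out the 20 most abundant rows, GAPDH among them, gave -0.97 over the other 34 members. Neither scale is set to the median gene, so these medians also hold the shift of all genes. The members' median was -0.34 after quantile normalization, -0.72 in the ratio-scaled fit and -0.79 in that fit with a pseudocount of 0.1. Members higher and lower in the common-median fit numbered 4 and 12 at a pseudocount of 5, and 6 and 2 without a filter. In place of the common median, they numbered 0 and 30 on spike-ins, 0 and 26 without the 20 rows and 3 and 17 after quantile normalization. These last 3 pairs also replace the deposited 25 and 0. Over all genes, higher and lower calls numbered 15078 and 54 as deposited and 5590 and 10238 at a common median with no filter, and 3476 and 28, and 1025 and 1171, for genes averaging 5 TPM or more. They were 325 and 6339 on spike-ins, 1002 and 2577 without the 20 rows and 1842 and 2136 after quantile normalization. These stand in place of 9608 and 33 as deposited and 1703 and 2545 at a common median. With a pseudocount of 5 the common-median counts were 2354 and 3483.

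With no filter, members called lower turned positive: ENO3 (0.22), IDH1 (0.16), PGK1 (0.12), IDH3A (0.10), PFKL (0.071), PGAM1 (0.056) and MDH1 (0.025), and HK2 was called higher (0.38). With a pseudocount of 5, PGAM1 (0.068) and PGK1 (0.017) were positive. On spike-ins, a scale not set to the median gene, all 35 were negative, ENO2 (-0.30), SLC2A1 (-0.59), SLC2A3 (-0.32), SLC16A1 (-0.46) and PFKM (-0.89) included. In the ratio-scaled fit without Flag-RIP replicate 2, HK2 was called higher (0.28). The pair ratios are given here as log2 differences of Flag-RIP from input. SLC2A3 over SLC2A1 went from 0.20 to -0.25 with 1 added to both values. LDHB over LDHA went from 0.14 to -0.02 without Flag-RIP replicate 1. Adding 1 took HK2 over HK1 from 0.97 to 0.063 and IDH3B over IDH3A from -0.89 to -0.38. The cause of these changes was not tested.

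With 1 library left out, members lower in the common-median fit numbered 3 without input replicate 1, 10 without input replicate 2, 13 without Flag-RIP replicate 1 and 19 without Flag-RIP replicate 2, and in the ratio-scaled fit 15, 23, 2 and 18. Members higher ranged from 0 to 4, and the median from -0.49 to -0.40 in the common-median fit. In the ratio-scaled fit, with libraries left out in the same order, the median was -0.62, -0.82, -0.64 and -0.71. In either fit, the lower calls of all tested genes ranked the left-out libraries in the same order as the members' lower calls. Each of these fits leaves 1 library in an arm, and the members' counts alone do not set the members apart from other genes. As deposited, 6 to 31 were higher, with 6 without Flag-RIP replicate 1 and 9 without Flag-RIP replicate 2, and 0 lower. Over all genes, 5396 to 9801 were higher and 27 to 36 lower as deposited, and 332 to 2294 higher and 322 to 3184 lower at a common median. The ratio-scaled fit gave 907 and 1079 without input replicate 1 and 914 and 222 without Flag-RIP replicate 1, against 2240 and 2472 with all libraries. With the replicate number as a block, 14 members were lower and 2 higher at a common median, and 21 higher as deposited. Over all genes that block gave 2457 lower and 1720 higher at a common median, and 9109 higher as deposited. Robust variance gave 21 members lower and 3 higher, against 2660 and 1679 of all genes. No variance trend gave 22 and 2, against 2561 and 1522.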
